A study of Mus musculus with 20 samples.

Results

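Messenger RNA levels of 8 genes of nicotinamide adenine dinucleotide (NAD) metabolism and axon degeneration were followed in dorsal root ganglia (DRG), which hold the cell bodies of the sensory neurons of the body, after a nerve lesion. The genes were taken by name and not by a rule on measured values, but with earlier results of these data known. They were Sarm1, Nmnat1, Nmnat2, Nmnat3, Nampt, Naprt, Nadk and Nmrk1. They are 8 of 78258 genes in the deposited count table, and all 8 were among the 28564 genes that passed the filter on low counts. Another 60 genes of the same pathways were kept in 3 lists, other NAD synthesis and transport (21 genes), NAD consumers (18) and axon degeneration regulators (21), of which 58 passed the filter. Nmrk2, with 0 to 16 counts per library, and Ido1, with 0 to 8, did not.

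NAD is a redox carrier and is also consumed by enzymes that split off its nicotinamide. Cells rebuild it mainly from nicotinamide, which NAMPT turns into nicotinamide mononucleotide (NMN), and the NMNAT enzymes then join NMN to ATP to give NAD. In a cut axon the short-lived NMNAT2 protein is no longer supplied from the cell body, NMN rises as NAD falls, and SARM1, an NADase held inactive by NAD and activated by NMN, destroys the remaining NAD and drives degeneration of the axon.

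The libraries came from 10 male mice, 5 per genotype, and each mouse gave 1 library of the L4 to L6 ganglia on the lesioned (ipsilateral) side and 1 of those on the other (contralateral) side, which made 4 groups of 5. The conditional knockout (cKO) was Ahr fl/fl Thy1CRE-ERT2/EYFP, in which a tamoxifen-activated Cre driven by the Thy1 promoter removes Ahr, the aryl hydrocarbon receptor, in neurons that express the transgene. Controls were Ahr f/f or f/+ per the protocol, with ff in every control library name and "Wildtype" in the sample titles; no Cre is named for them. All 10 mice had tamoxifen at 100 mg/kg for 5 days from 17 weeks of age, sciatic nerve transection 4 weeks later and dissection 1 day after that, so the contralateral ganglia are those of lesioned animals and no unlesioned mouse was analysed here. One label field names a spinal cord injury in place of the nerve lesion.

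Libraries held 76.2 to 118.5 M counts (M, mega), and libraries of one group differed beyond counting noise (chi-square per degree of freedom 5.31 to 58.3 over 40 pairs). All 9 sensory neuron markers were detected, with summed levels of 7497 to 8892 CPM (counts scaled to library size, with TMM factors). Ahr, the targeted gene, spanned 21.3 to 27.2 CPM in the control contralateral and 19.5 to 20.99 CPM in the cKO contralateral libraries, which did not overlap (1.52% of all tested genes were separate between those groups). Ipsilaterally the ranges, 30.2 to 38.1 and 28.9 to 36.8 CPM, overlapped. Ahr passed the test on neither side (log2 difference, cKO minus control, -0.25 with adjusted p 0.103 contralaterally and -0.11 with adjusted p 1 ipsilaterally); contralaterally it passed with DESeq2 (-0.24, adjusted p 0.0216) and without mouse H99 (-0.25, adjusted p 0.0353). The lesion was seen in Atf3, the axotomy-induced transcription factor, which rose by 5.23 (control) and 5.50 (cKO) on the log2 scale, and in Sprr1a (5.32 and 5.35), Sox11 (2.90 and 3.13) and Gal (1.73 and 1.55), which axotomy also induces. Leaving out cKO mouse H99 changed the contralateral genotype comparison, and values without it are given there. Its contralateral library differed most from those of H64, H95 and H100 (chi-square per degree of freedom 53.6, 53.3 and 58.3) and least from that of H61 (14). In whole ganglia, fewer cells of a type and less RNA per cell cannot be told apart.

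Promoters are shown because the knocked-out receptor binds DNA, with its partner ARNT, at the letters GCGTG, the core of the xenobiotic response element. In RefSeq windows on GRCm38.p6 that run from 250 bases before to 50 bases after the annotated start, 7 of the 8 genes matched; Naprt did not. GCGTG, AP-1 (TGANTCA) and the shortened cAMP response element (TGACG) were searched on both strands and stood in 32.4%, 7.81% and 20.8% of 32851 windows of 300 bases. The windows of Sarm1 (chr11:78497705-78498004, minus strand), Nmnat2 (chr1:152954851-152955150, plus strand) and Nampt (chr12:32820085-32820384, plus strand) are printed 5′ to 3′, with GCGTG and TGACG, or their reverse complements CACGC and CGTCA, in capitals.
Sarm1: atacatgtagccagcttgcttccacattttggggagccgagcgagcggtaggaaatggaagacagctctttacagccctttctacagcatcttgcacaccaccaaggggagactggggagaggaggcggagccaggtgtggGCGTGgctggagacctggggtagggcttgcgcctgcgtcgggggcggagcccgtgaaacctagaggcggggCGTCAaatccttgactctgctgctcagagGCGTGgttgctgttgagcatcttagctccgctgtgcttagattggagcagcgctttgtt
Nmnat2: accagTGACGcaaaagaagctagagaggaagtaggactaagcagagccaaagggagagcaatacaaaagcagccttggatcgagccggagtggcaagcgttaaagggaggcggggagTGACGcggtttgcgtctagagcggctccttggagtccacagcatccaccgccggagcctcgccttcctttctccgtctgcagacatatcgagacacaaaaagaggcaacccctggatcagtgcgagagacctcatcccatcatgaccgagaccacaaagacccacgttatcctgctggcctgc
Nampt: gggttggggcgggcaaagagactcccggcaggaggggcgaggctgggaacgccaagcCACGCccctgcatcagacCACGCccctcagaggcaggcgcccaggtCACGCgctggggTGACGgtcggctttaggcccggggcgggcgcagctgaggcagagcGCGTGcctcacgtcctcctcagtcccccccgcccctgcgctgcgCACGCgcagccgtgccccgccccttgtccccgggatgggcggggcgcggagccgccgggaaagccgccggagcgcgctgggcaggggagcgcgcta
The Sarm1 window held 2 matches to GCGTG, at -109 and -9 from the start, and a TGACG match at -38. In the Nmnat2 window there was no GCGTG, and TGACG stood at -245 and -133. The Nampt window, with 5 GCGTG matches at -193, -175, -147, -90 and -46 and 1 TGACG at -135, held the most. Nmrk1 had 2 GCGTG matches, Nmnat3 had 1, 1 of the 2 Nadk windows had 3 and the other none, and the 2 Nmnat1 windows had none of these letters. TGANTCA was in no window, and no capitals of the 2 motifs overlapped. A match is a description of the letters and not evidence of binding.

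To compare the genes with each other, CPM were divided by the length of the merged exons in kilobases. Nmnat2, the axonal and vesicle-bound NMN adenylyltransferase, was the most abundant of the 8 at 28.4 ± 1.11 CPM per kb in control contralateral ganglia (SD, n = 5). Nadk, which phosphorylates NAD to NADP, followed at 13.9 ± 1.02, then Nampt at 11.2 ± 0.761 and Sarm1 at 10.5 ± 0.646. Nampt (10.2 to 12.0 CPM per kb) and Sarm1 (9.42 to 11.1) overlapped and so had no order on that side. The nuclear adenylyltransferase Nmnat1 stood at 3.12 ± 0.159 and the nicotinamide riboside kinase Nmrk1 at 2.29 ± 0.116. Naprt, which starts NAD synthesis from nicotinic acid, stood at 1.11 ± 0.183 and the mitochondrial Nmnat3 at 0.163 ± 0.0297 CPM per kb. On the lesioned side of control mice Naprt (1.41 to 2.13 CPM per kb) came to overlap Nmrk1 (1.76 to 1.99).

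**Figure D1:**
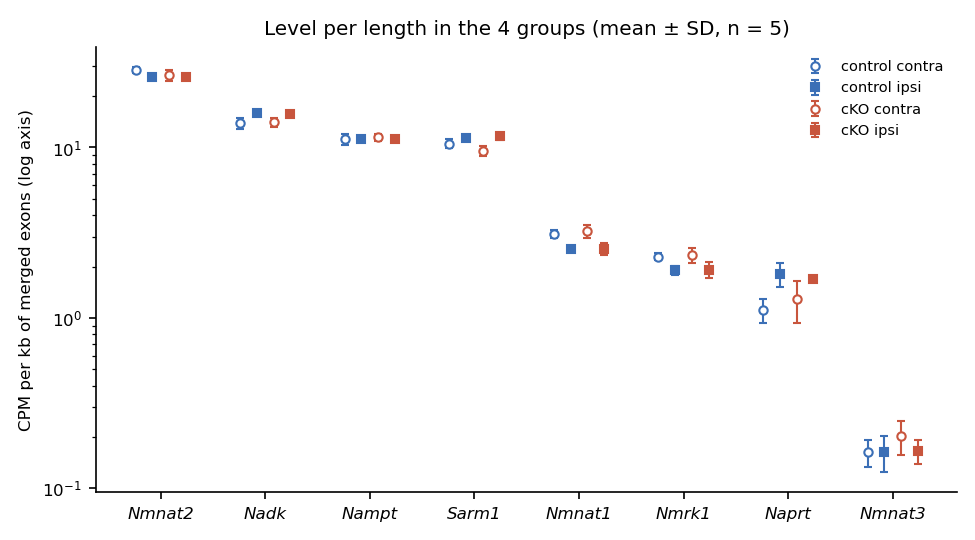
Level of each of the 8 genes in CPM per kilobase of merged exons (log axis) in the 4 groups, as mean ± SD of 5 libraries. Nmnat2 was highest in all 4 groups and Nmnat3 lowest, at 0.163 to 0.202 CPM per kb.

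Transection changed a part of the set by small amounts. In control mice 5 of the 8 genes passed the test, against 29.9% of all tested genes: Naprt and Nadk rose (13.8% of all genes did) and Nmnat1, Nmnat2 and Nmrk1 fell (16% did). In cKO mice 4 of 8 passed, against 31.3% of all genes: Sarm1 and Nadk rose (16.2% did) and Nmnat1 and Nmrk1 fell (15.1% did). The median log2 fold change of the 8 was -0.0050 in control and -0.03 in cKO mice, beside -0.0047 and -0.03 over all tested genes. The 5 and 4 calls refer to the same 8 genes in separate mice, and the differences between the genotypes are tested further on.

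Sarm1, the NADase that carries out axon degeneration, stood at 53.0, 62.5, 60.8, 60.0 and 59.8 CPM in the contralateral libraries of control mice H62, H63, H65, H96 and H97. On the lesioned side the same mice gave 63.2, 62.9, 65.7, 62.5 and 63.3 CPM. All 5 mice were higher on the lesioned side, but by little: the lowest ipsilateral library (62.49 CPM) only just cleared the highest contralateral one (62.48). The log2 fold change was 0.10 (SE 0.047, adjusted p 0.120, edgeR), which did not pass the test; it passed in 1 of 18 alternative settings, the fit of only the 10 control libraries (0.12, adjusted p 0.0339). Over the 18 it ranged from 0.07 to 0.14, and it was lowest without H62 (0.07, adjusted p 0.354), whose contralateral library was the lowest of the 5.

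In cKO mice H61, H64, H95, H99 and H100 Sarm1 was at 55.9, 48.7, 52.4, 59.1 and 52.9 CPM contralaterally. Ipsilaterally it reached 62.8, 68.7, 65.9, 68.2 and 61.9 CPM. Every lesioned ganglion sample was above every contralateral one, and the smallest rise, in H61, was larger than 4 of the 5 rises in control mice. The group means were 53.8 ± 3.91 and 65.5 ± 3.08 CPM (SD, n = 5), a log2 fold change of 0.28 (SE 0.047, 95% interval 0.19 to 0.38, adjusted p 8.569e-05), or 21.7%. Sarm1 was the only 1 of the 8 genes whose sides did not overlap in cKO mice, where this held for 20.2% of all tested genes; in control mice it held for 6 of 8, against 23.6%.

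Nmnat2, whose protein keeps SARM1 off in the axon, went the other way in control mice. It stood at 156, 166, 166, 161 and 174 CPM contralaterally (H62, H63, H65, H96, H97) and at 144, 148, 149, 155 and 152 CPM ipsilaterally. The sides did not overlap and all 5 mice were lower on the lesioned side. The mean fell from 164 ± 6.44 to 149.5 ± 4.16 CPM, a log2 fold change of -0.14 (SE 0.042, 95% interval -0.22 to -0.05, adjusted p 0.0172). Without mouse H63, H65 or H97 the change was -0.12, -0.12 or -0.11 and no longer passed (adjusted p 0.0786, 0.0677 and 0.0920).

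In cKO mice Nmnat2 was at 155, 144, 147, 173 and 148 CPM contralaterally (H61, H64, H95, H99, H100) and at 144, 151, 152, 157 and 148 CPM ipsilaterally. H99 alone was above 156 on the contralateral side, and 2 of the 5 mice were lower on the lesioned side. The log2 fold change was -0.03 (95% interval -0.12 to 0.06, adjusted p 0.665), and it turned to 0.01 (adjusted p 0.890) without H99. Of the 9 sensory neuron markers, 3 were higher and 6 lower on the lesioned side in each genotype (medians -0.05 and -0.09), and none was at 0. The test called 4 lower in control mice (Rbfox3, Scn9a, Scn10a and Isl1), 2 lower in cKO mice (Rbfox3 and Isl1) and none higher. Their summed level was 7756 to 8874 CPM contralaterally and 7678 to 8457 CPM ipsilaterally in control mice, and 7499 to 8892 and 7497 to 8121 CPM in cKO mice. Of the satellite glia markers 2 of 5 were called higher in each genotype, with sums of 1520 to 1684 CPM contralaterally and 1705 to 1934 CPM ipsilaterally in control mice, which did not overlap, and 1508 to 1844 and 1637 to 1840 CPM in cKO mice, which did. With no marker called, 5 of 5 fibroblast, 4 of 4 endothelial, 4 of 4 neutrophil and 3 of 3 muscle markers were higher on the lesioned side in control mice, and 1 of 5, 2 of 4, 1 of 4 and 0 of 3 in cKO mice. Of Schwann cell, erythroid and lymphocyte markers, also with none called, 3 of 5, 2 of 3 and 1 of 4 were higher in control mice. In cKO mice these were 2 of 5, 0 of 3 and 1 of 4. Macrophage markers are given with Cd38 further on. The part of cell content in the injury changes of the 8 genes was not tested.

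The balance of the pair was looked at after the single values had been seen, as a description with no test. The level of Nmnat2 per length was 2.58 to 2.87 times that of Sarm1 in control contralateral libraries (median 2.65) and 2.20 to 2.41 times in ipsilateral ones (median 2.29). In cKO mice the ratio was 2.71 to 2.87 contralaterally (median 2.73) and 2.14 to 2.32 ipsilaterally (median 2.24). The ratio was lower on the lesioned side in 5 of 5 control and 5 of 5 cKO mice, by -7.39% to -22.9% and by -14.6% to -25.5%. The sides did not overlap in either genotype. In control mice this had to be so, because the sides of Sarm1 and of Nmnat2 were already separate in opposite directions. It is no further result there. In control mice the log2 fold changes of Sarm1 (0.10) and Nmnat2 (-0.14) were of like size, while in cKO mice that of Sarm1 (0.28) was the larger of the pair beside -0.03 for Nmnat2.

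**Figure D2:**
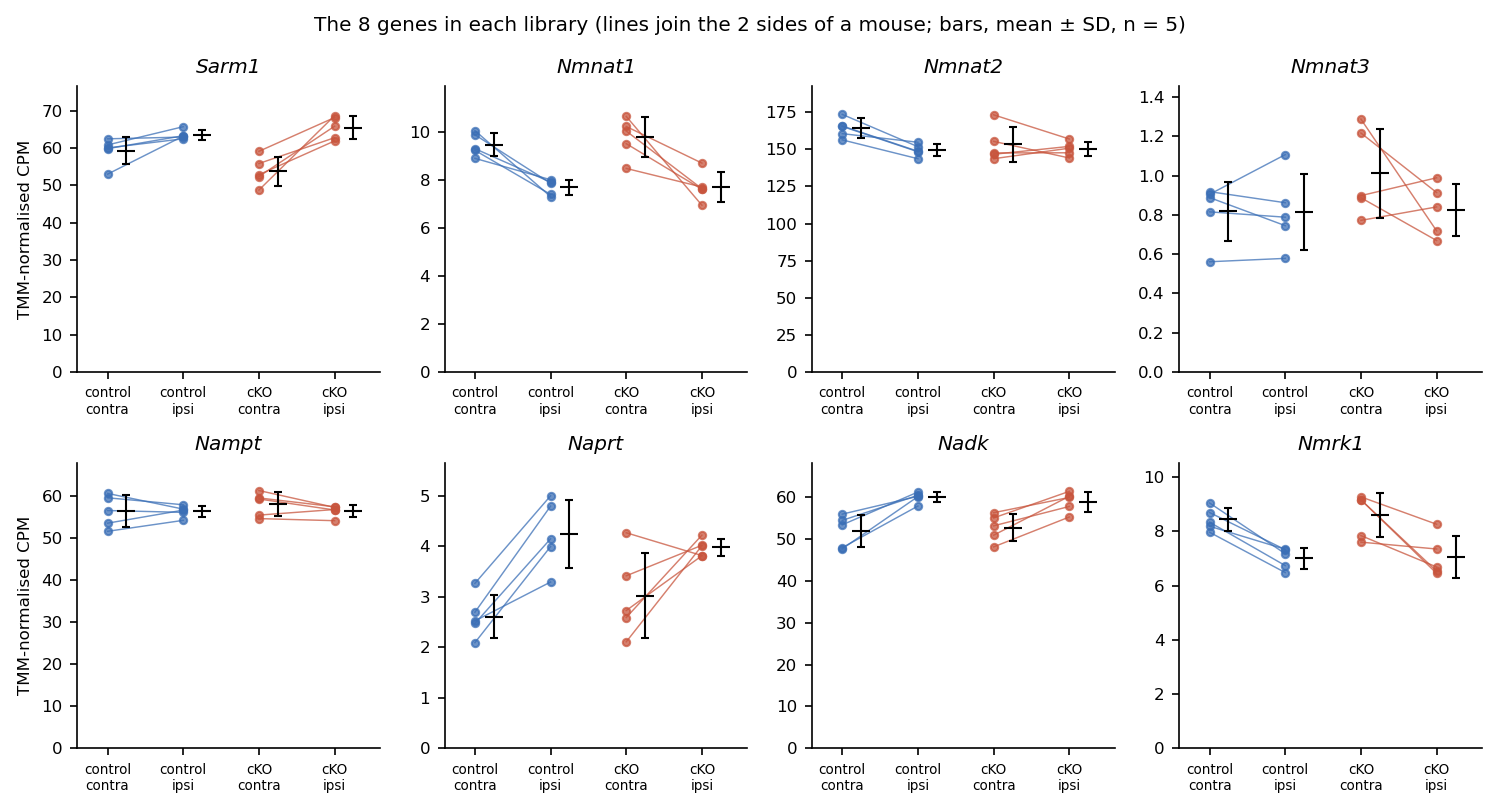
TMM-normalised CPM of the 8 genes in each of the 20 libraries, with lines joining the contralateral and ipsilateral library of a mouse (control blue, cKO red) and bars giving mean ± SD (n = 5). Nmnat1 and Nmrk1 slope down and Nadk and Sarm1 slope up in all 10 mice, Sarm1 by only 0.01 on the log2 scale in control mouse H63. The Nmnat2 lines of cKO mice cross.

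Nmnat1, the nuclear isoform, fell in both genotypes. Contralateral libraries of control mice held 8.90 to 10.1 CPM (median 9.31) and ipsilateral ones 7.31 to 8.01 (median 7.86), with no overlap. In cKO mice the values were 8.48 to 10.7 CPM (median 10.04) and 6.95 to 8.70 CPM (median 7.64), which overlapped through H95 and H99. Each of the 10 mice was lower on the lesioned side. The log2 fold change was -0.30 (SE 0.063, adjusted p 0.000845) in control and -0.34 (SE 0.062, adjusted p 0.0002288) in cKO mice, or -18.8% and -21.1%. Nmnat3, the mitochondrial isoform, had 45 to 116 counts per library and overlapped between sides in both genotypes. Its log2 fold changes of -0.01 (95% interval -0.39 to 0.37) in control and -0.30 (-0.67 to 0.07) in cKO mice did not pass. The control interval leaves room for sizeable changes either way, and the cKO interval mainly for a fall. Without H95 the cKO value was -0.15 (adjusted p 0.653).

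Of the enzymes that feed precursors in, Nampt, the rate-limiting step of the salvage from nicotinamide, showed the narrowest spread around 0. It had 51.7 to 60.7 CPM contralaterally and 54.3 to 58.0 CPM ipsilaterally in control mice, and 54.7 to 61.4 and 54.2 to 57.5 CPM in cKO mice. The sides overlapped in both. Its log2 fold changes were -0.00083 (95% interval -0.09 to 0.08) and -0.04 (-0.13 to 0.05).

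Naprt, the entry point of nicotinic acid, had the largest change of the 8. In control mice H62, H63, H65, H96 and H97 it stood at 2.47, 3.27, 2.52, 2.70 and 2.09 CPM contralaterally and at 4.15, 5.00, 3.30, 4.80 and 4.00 CPM ipsilaterally. All 5 rose without overlap, and the log2 fold change was 0.70 (SE 0.152, 95% interval 0.39 to 1.02, adjusted p 0.00122), or 1.63-fold. In cKO mice H61, H64, H95, H99 and H100 the values were 2.59, 4.27, 3.42, 2.11 and 2.73 CPM contralaterally and 4.22, 3.82, 4.02, 4.01 and 3.82 CPM ipsilaterally. H64 went down and the other 4 went up.

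The log2 fold change of Naprt in cKO mice was 0.40 (SE 0.151, adjusted p 0.0514) and missed the threshold. With the mouse as a block, which uses the pairing of the 2 libraries of an animal, it was 0.43 (adjusted p 0.0226), and without H64 it was 0.57 (adjusted p 0.00689). It also passed without H63 (0.40, adjusted p 0.0453), with a minimum mean CPM of 1 (0.40, adjusted p 0.0432), with DESeq2 (0.40, adjusted p 0.0313) and with limma-voom (0.44, adjusted p 0.0145). Naprt has 168 to 451 counts per library and shares 277 bases (11.8% of its merged exons) with Eef1d on the same strand in GENCODE M21, so its counts are uncertain by what the authors' counting did with shared reads. The other 7 genes share no exonic bases with another gene there.

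Nmrk1, which phosphorylates nicotinamide riboside to NMN, fell in both genotypes. It had 7.97 to 9.05 CPM contralaterally (median 8.34) and 6.48 to 7.34 CPM ipsilaterally (median 7.18) in control mice, without overlap. In cKO mice it had 7.61 to 9.28 CPM (median 9.17) and 6.46 to 8.27 CPM (median 6.69), with overlap. All 10 mice were lower on the lesioned side, with log2 fold changes of -0.27 (SE 0.072, adjusted p 0.00679) and -0.29 (SE 0.072, adjusted p 0.00397).

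Nadk, downstream of NAD, rose in both. Control libraries held 47.7 to 56.0 CPM contralaterally (median 53.4) and 57.9 to 61.2 CPM ipsilaterally (median 60.2), without overlap. In cKO mice the values were 48.1 to 56.3 CPM (median 53.2) and 55.3 to 61.4 CPM (median 59.9), which overlapped through H95 and H99. The log2 fold change was 0.21 (SE 0.047, adjusted p 0.00171) in control and 0.16 (SE 0.047, adjusted p 0.0122) in cKO mice, and all 10 mice were higher on the lesioned side. Without H61 the cKO value was 0.14 and missed the threshold (adjusted p 0.0634).

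**Figure D3:**
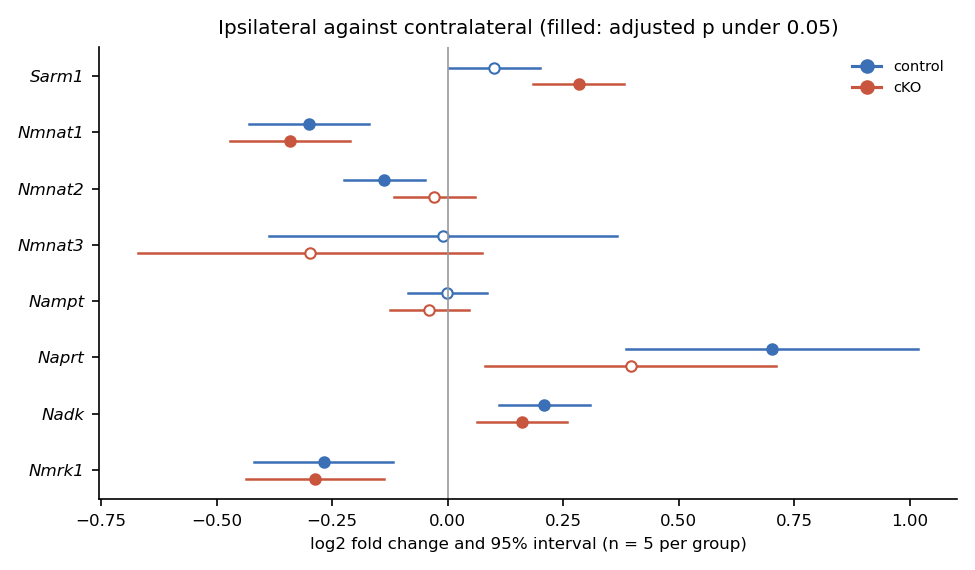
Log2 fold change, ipsilateral against contralateral, of the 8 genes in control (blue) and cKO mice (red), with 95% intervals and filled points where the adjusted p was under 0.05 (n = 5 per group). Sarm1 was called in cKO only and Nmnat2 and Naprt in control only, with intervals of the 2 genotypes that overlap in all 3.

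The cKO and control mice were compared on each side. No gene of the 8 passed the edgeR test contralaterally, where 0.0735% of all genes (21) did, or ipsilaterally, where 0.007% (2) did. At an unadjusted p under 0.05 there were 2 of 8 contralaterally, Sarm1 and Nmnat2, where 17.5% of all genes reached it, and 0 ipsilaterally, where 2.36% did; DESeq2 and limma-voom also called none of the 8. Contralaterally Sarm1 averaged 59.2 ± 3.63 CPM in control and 53.8 ± 3.91 CPM in cKO mice (SD, n = 5), a log2 difference, cKO minus control, of -0.14 (95% interval -0.24 to -0.04, adjusted p 0.147). Nmnat2 averaged 164 ± 6.44 and 153 ± 12.0 CPM, a log2 difference of -0.10 (95% interval -0.19 to -0.01, adjusted p 0.225).

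Whether these differences passed the test depended on 1 animal, while both stayed below 0 over all 17 alternative settings. Without H99, which had the highest Sarm1 and Nmnat2 of the cKO contralateral libraries, the differences were -0.17 for Sarm1 (adjusted p 0.0210) and -0.15 for Nmnat2 (adjusted p 0.00884). Of all 28818 genes tested, 3326 were then called, in place of 21. The contralateral groups of both genes overlapped with all mice kept. For Sarm1 they also overlapped with H99 set aside, as cKO mouse H61 (55.9 CPM) was above control mouse H62 (53.0 CPM). For Nmnat2 only H99 reached the control range: the next highest cKO library, H61, had 155.4 CPM and the lowest control library, H62, 156.4 CPM. The 6 other genes differed contralaterally by 0.02 to 0.05 on the log2 scale, except Naprt (0.21, 95% interval -0.11 to 0.53) and Nmnat3 (0.31, -0.07 to 0.68). Over the alternative settings the Naprt difference ran from 0.06 to 0.32 and that of Nmnat3 from 0.21 to 0.39. Ipsilaterally the differences of all 8 lay between -0.09 (Naprt) and 0.04 (Sarm1); those of Nampt, Nmnat1, Nmnat2, Nmnat3 and Nmrk1 changed sign when single mice were left out.

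Most markers of other cells had higher estimates in cKO than in control contralateral libraries, but none was called. All 5 fibroblast markers were higher in cKO libraries, none of them called, with a summed level of 621 to 961 CPM in control and 696 to 1685 CPM in cKO contralateral libraries and none at 0. The same held, with no marker called, for 6 of 6 macrophage (median log2 difference 0.27), 4 of 4 neutrophil (0.72), 4 of 4 endothelial (0.10), 3 of 3 erythroid (0.42) and 3 of 3 muscle markers (1.60), and for 4 of 5 Schwann cell, 3 of 5 satellite glia and 1 of 4 lymphocyte markers. Their summed levels in control and cKO contralateral libraries were 56.7 to 98.7 and 59.5 to 137 CPM (macrophage), 29.3 to 92.7 and 17.2 to 135 CPM (neutrophil) and 5.47 to 245 and 3.28 to 1216 CPM (muscle). Sensory neuron markers were lower in 8 of 9, none called, with sums of 7756 to 8874 and 7499 to 8892 CPM. The part of cell content in the contralateral differences was not tested.

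**Figure D4:**
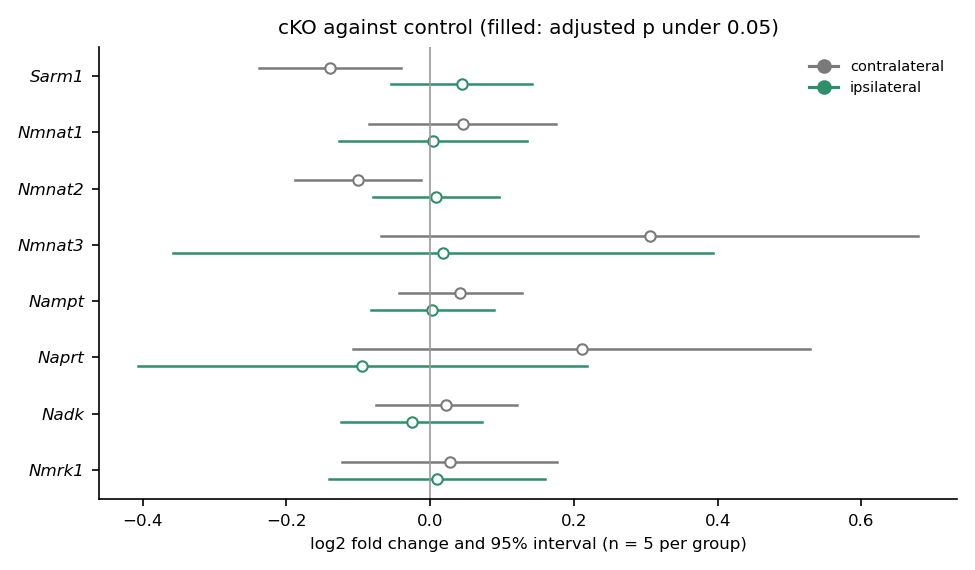
Log2 difference, cKO against control, of the 8 genes in contralateral (grey) and ipsilateral ganglia (green), with 95% intervals (n = 5 per group); no point is filled, as none passed the test. The Sarm1 and Nmnat2 intervals lie below 0 contralaterally, while all 8 ipsilateral intervals span 0.

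The difference between the 2 injury responses was tested as the interaction of genotype and side, which shares its libraries with the comparisons above. No gene of the 8 passed, and 0% of all genes did (2799 at an unadjusted p under 0.05, and 11 adjusted calls with DESeq2, none of them among the 8). Sarm1, the single gene of the 8 with an unadjusted p under 0.05, had an interaction of 0.18 (95% interval 0.04 to 0.32, adjusted p 0.485): its response was larger in cKO mice by that amount on the log2 scale. Between genotypes, cKO minus control, Sarm1 differed by -0.14 contralaterally and by 0.04 ipsilaterally, and neither passed the edgeR test. The interaction is the difference of these values, so most of it lay on the contralateral side. For Nmnat2 the interaction was 0.11 (95% interval -0.02 to 0.23, adjusted p 0.551) and for Naprt -0.31 (-0.75 to 0.14, adjusted p 0.631). Over 17 alternative settings the Naprt value ran from -0.41 to -0.13. The remaining 5 lay between -0.29 (Nmnat3) and -0.02 (Nmrk1). The calls of Sarm1 in cKO mice alone and of Nmnat2 and Naprt in control mice alone therefore do not show that the genotypes respond differently. With no marker called, the interaction was above 0 for 0 of 5 fibroblast, 0 of 6 macrophage, 0 of 4 neutrophil and 0 of 4 endothelial markers. It was above 0 for 0 of 5 Schwann cell, 0 of 3 erythroid, 0 of 3 muscle, 1 of 5 satellite glia, 2 of 4 lymphocyte and 5 of 9 sensory neuron markers. The part of cell content in the interaction was not tested.

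The wider pathways were read from the 3 lists. After transection 22 of 58 tested genes (37.9%) passed in control and 23 of 58 (39.7%) in cKO mice, beside 29.9% and 31.3% of all genes. Between genotypes, and in the interaction, 0 of 58 passed in edgeR. At an unadjusted p under 0.05 there were 11 contralaterally, 2 ipsilaterally and 6 in the interaction, beside 17.5%, 2.36% and 9.8% of all genes, and DESeq2 called 1 contralaterally among 1041 over all genes. Leaving out any mouse but H99 gave 0 or 1 contralateral edgeR calls among the 58. Without H99 the count was 12 of 58 (3 higher and 9 lower in cKO mice), beside 3326 of 28818 over all genes tested. Higher then were Nnmt (1.29, adjusted p 0.00472), Casp6 (0.30, adjusted p 0.0302) and Pnp (0.27, adjusted p 0.0422). Lower were Map3k13 (-0.28), Parp4 (-0.23), Tnks (-0.20), Ube4b (-0.17), Parp1 (-0.17), Aox1 (-0.17), Capn1 (-0.15), Map2k4 (-0.10) and Map2k7 (-0.09), with adjusted p between 0.00443 and 0.0443.

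Of the other NAD synthesis and transport genes, 3 rose and 3 fell of 19 in each genotype (31.6% called, beside 29.9% over all genes for control and 31.3% for cKO mice), with a median of 0.05 in control and -0.05 in cKO mice. Pnp, purine nucleoside phosphorylase, which also splits nicotinamide riboside, rose from 12.1 ± 0.551 to 19.6 ± 0.78 CPM in control mice (SD, n = 5), a log2 fold change of 0.70 (SE 0.096, adjusted p 1.002e-05), and by 0.56 in cKO mice (adjusted p 0.0001229). Its counts are uncertain where reads also match its near-identical neighbour Pnp2. Nt5e, the surface nucleotidase CD73 that turns NMN into nicotinamide riboside outside cells, rose by 0.27 and 0.42, and the mitochondrial NAD carrier Slc25a51 by 0.12 and 0.16. The mitochondrial NAD kinase Nadk2 fell by 0.20 and 0.26, which is opposite to Nadk, and the mitochondrial transhydrogenase Nnt fell by 0.20 and 0.21. Aox1, an aldehyde oxidase that also oxidises the methylated nicotinamide made by NNMT, fell by 0.25 in control mice and had -0.10 in cKO mice (adjusted p 0.122). In control mice the Nadk2 and Nnt calls were lost without H62, H63 or H65 (-0.14 to -0.20 and -0.17 to -0.18, adjusted p 0.0558 to 0.162 and 0.0626 to 0.0957), and in cKO mice that of Nnt without H95 or H99 (-0.21 and -0.19, adjusted p 0.0510 and 0.0556). Nnt was also lost without the filter on low counts (-0.19 in control and -0.20 in cKO mice, adjusted p 0.0681 and 0.0634) and, in control mice, when only those libraries were fitted (-0.19, adjusted p 0.0524).

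Of the enzymes that consume NAD, 2 rose and 3 fell of 18 in control mice (27.8% called, against 29.9% of all genes, with a median of 0.07) and 6 rose and 2 fell in cKO mice (44.4% against 31.3%, with a median of 0.05). Cd38, a NAD glycohydrolase of the cell surface, had the largest change: control libraries held 3.36 to 4.40 CPM contralaterally and 6.40 to 9.86 CPM ipsilaterally, and cKO libraries 3.20 to 4.93 and 7.41 to 9.01 CPM. No library of one side reached the other, and the log2 fold changes were 1.16 (SE 0.123, adjusted p 3.554e-07) and 1.04 (SE 0.123, adjusted p 1.292e-06). Immune cells also express Cd38; 6 of 6 macrophage markers were higher ipsilaterally in control mice (1 called) and 5 of 6 in cKO mice (0 called), with sums of 56.7 to 98.7 and 62.1 to 121 CPM in control and 59.5 to 137 and 81.0 to 140.3 CPM in cKO mice, and their part in the Cd38 value was not tested.

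Parp3, a nuclear ADP-ribosyltransferase of DNA repair, rose by 0.47 and 0.34. The mitochondrial sirtuins Sirt5 and Sirt3 fell in both genotypes, Sirt5 by 0.31 and 0.23 and Sirt3 by 0.15 and 0.18, while Parp2 fell by 0.17 in control mice and had -0.08 in cKO mice (adjusted p 0.325). Parp1, the main DNA damage sensor of the family, was named after its values were seen: it had -0.03 in control mice (adjusted p 0.692) and rose by 0.14 in cKO mice (adjusted p 0.0172). Parp4 and Sirt6, singled out likewise, were called higher in cKO mice in 18 of 18 alternative settings (0.25 to 0.39 and 0.15 to 0.19). In control mice they were called in 1 and 0 of 18 (0.09 to 0.16 and 0.04 to 0.11). The interaction called none of Parp1, Parp4 and Sirt6 in any of 17 alternative settings. Some of these values depended on single mice or on the fit. The fall of Sirt3 in cKO mice was smaller without H64, the highest of their contralateral libraries (-0.11, adjusted p 0.0292). The Sirt3 call in control mice was lost without H62, H63, H65, H95, H96 or H97 (-0.13 to -0.16, adjusted p 0.0598 to 0.126) and that of Parp2 without H62, H63, H96, H97, H99 or H100 (-0.11 to -0.17, adjusted p 0.0527 to 0.258, the smallest change without H96). The Parp1 call in cKO mice was lost without H64, H95 or H100 (0.11 to 0.14, adjusted p 0.0518 to 0.0811). With all mice kept, the control call of Parp2 was lost with RLE scaling, without the filter on low counts and when only the control libraries were fitted (-0.15 to -0.16, adjusted p 0.0524, 0.105 and 0.0642), and that of Sirt3 without the filter (-0.14, adjusted p 0.0630). When only the cKO libraries were fitted, Sirt3 (-0.16, adjusted p 0.0589) and Parp1 (0.16, adjusted p 0.0551) missed the threshold.

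Of the axon degeneration regulators, 6 rose and 5 fell of 21 in control mice (52.4% called, against 29.9% of all genes, with a median of 0.02) and 7 rose and 2 fell in cKO mice (42.9% against 31.3%, with a median of 0.06). Casp6, an effector caspase linked to axon pruning, went from 3.56 ± 0.427 to 7.97 ± 0.264 CPM in control mice and from 4.25 ± 0.566 to 7.995 ± 0.809 CPM in cKO mice (SD, n = 5). Its log2 fold changes were 1.16 (SE 0.094, adjusted p 5.61e-09) and 0.91 (SE 0.093, adjusted p 1.471e-07). Tnfrsf21, the death receptor DR6, rose by 0.42 and 0.50. The sides of both genes were separate in both genotypes.

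Map3k12 (DLK), a kinase that senses axon injury upstream of JNK, fell from 122.5 ± 3.87 to 109.4 ± 1.78 CPM in control mice, by 0.16 on the log2 scale (adjusted p 0.0001416), and by 0.09 in cKO mice (adjusted p 0.0171). The cKO call was lost without the filter on low counts (-0.08, adjusted p 0.161) and when only the cKO libraries were fitted (-0.07, adjusted p 0.147). Its relative Map3k13 (LZK) fell by 0.31 in control mice (adjusted p 0.00253) and had -0.10 in cKO mice (adjusted p 0.323). Zdhhc17, a palmitoyltransferase that acts on NMNAT2 and DLK, fell by 0.16 in control mice (adjusted p 0.00826) and had -0.03 in cKO mice (adjusted p 0.682); without H96 or H97 its control value was -0.14 or -0.11 and missed the threshold (adjusted p 0.0527 and 0.0881).

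A few of these regulators were singled out after their values were seen. Mycbp2, the PHR1 ubiquitin ligase that marks NMNAT2 for degradation, had log2 fold changes of 0.03 (adjusted p 0.849) and 0.14 (adjusted p 0.200) and did not pass. Over 18 alternative settings, none of which called it, these ran from -0.01 to 0.09 and from 0.07 to 0.22. Skp1a was called lower in cKO mice in 17 of 18 settings (-0.16 to -0.10) and in control mice in none (-0.05 to 0.02). Its cKO call was lost without H64 (-0.10, adjusted p 0.121). Stmn2, whose product is another short-lived axonal protein, averaged 1094 ± 58.5 and 1216 ± 52.7 CPM in control mice (log2 fold change 0.15, adjusted p 0.00549) and had 0.06 in cKO mice (adjusted p 0.266), the direction opposite to that of Nmnat2. Ube4b, the ubiquitin ligase gene fused to Nmnat1 in slow Wallerian degeneration mice, rose by 0.24 (adjusted p 0.00271) and 0.37 (adjusted p 3.124e-05) while Nmnat1 fell.

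**Figure D5:**
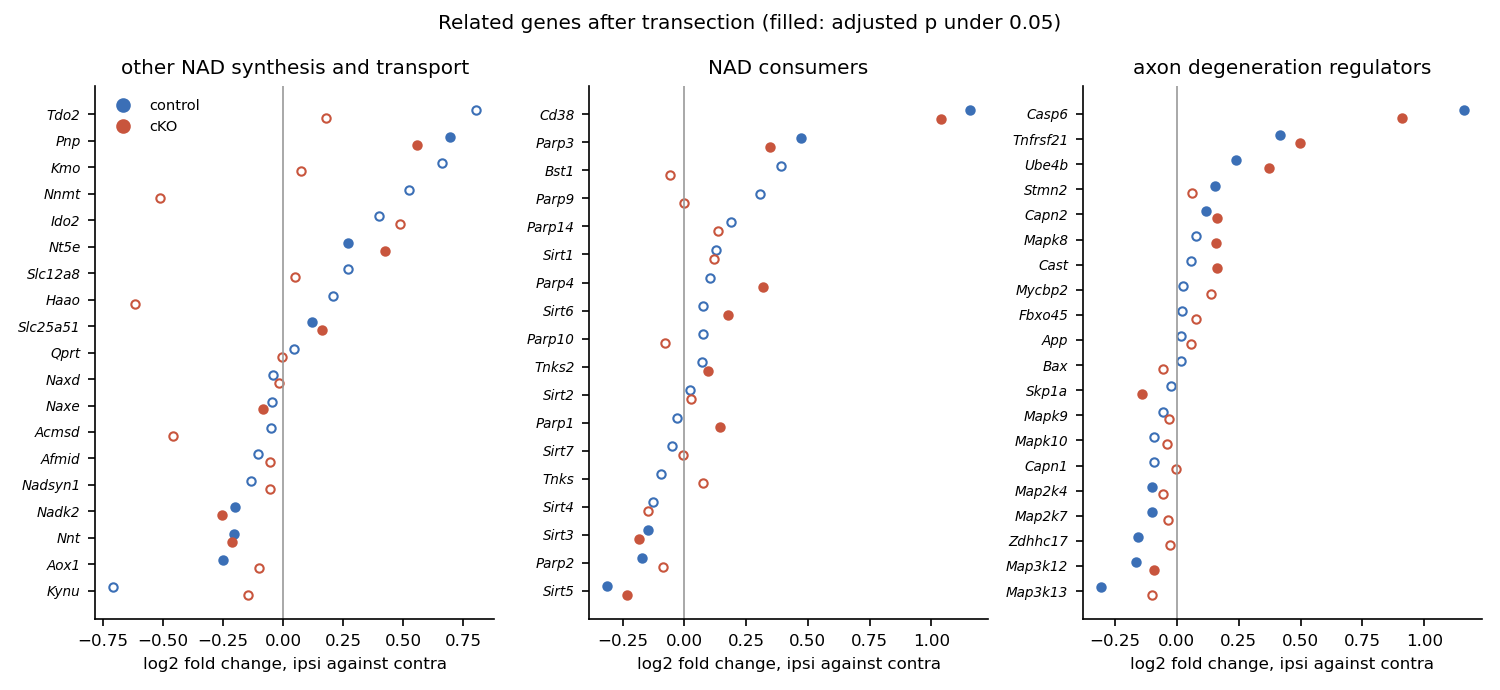
Log2 fold change, ipsilateral against contralateral, of 57 tested genes of the 3 lists, in control (blue) and cKO mice (red), filled where the adjusted p was under 0.05. Cd38 and Casp6 lie farthest to the right with both points filled, near 1.16 in control mice, and most other filled points lie within 0.5 of 0.

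Genes whose levels ran most nearly parallel to Sarm1 and Nmnat2 were sought among 13097 genes with a symbol and a mean of at least 5 CPM, by the root mean square difference of log2 CPM, each centred on its own mean, over the 20 libraries. For Sarm1, which varied by 0.131 around its mean, they were Slc45a1 (0.042), Gga3 (0.0422) and Ttll11 (0.0424). For Nmnat2, which varied by 0.082, they were Dnajc18 (0.0274), Rusc1 (0.0326) and Cul2 (0.0346). The 20 points share their mice and the strong difference between sides, and the values describe likeness only.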

How the data were processed

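Stranded mRNA libraries of 20 ganglion samples were read as paired 150 base reads, per the labels' protocols. The table used holds raw exonic counts, whole numbers deposited by the authors with no normalization; HISAT2, Picard, mm10 and mm39 are named in the submitters' processing notes without role, and the counting program, annotation and strand setting are not given in the sources used here. The build is thus open, and the coordinates printed are those of the RefSeq table only. The deposited FPKM table was not used.

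Columns were mapped to groups by library name. Identifiers were matched to GENCODE M21 symbols (51487 of 78258). Counts of all 20 libraries were fitted in R 4.3.3 with edgeR 4.0.16 (filterByExpr with a minimum count of 10 and total of 15, TMM, robust quasi-likelihood F-test, a mean per group). Adjusted p-values are Benjamini-Hochberg over 28564 genes per comparison, with a call under 0.05; there were 5 comparisons. CPM are TMM-normalised. Exon lengths are merged GENCODE M21 exons. The fit was tested on simulated data.

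Both libraries of an animal carry its number, which pairs them; their deviations from the group means correlated with a median of 0.186 (-0.0546 to 0.361), and 7 of 10 mice were above 0.1. Alternatives were DESeq2 1.42.0, RLE scaling, testing of all genes with any count, a minimum mean CPM of 1, a block for the mouse, limma-voom (limma 3.58.1) with the mouse as a random effect, a fit of the compared libraries alone, a covariate for the range of mouse numbers, and leaving out each mouse. The 8 genes, the lists and the tests were chosen with earlier results of these data known. Named list genes were the 3 highest and 3 lowest log2 fold changes of injury in control mice among those called, per list, plus any called in a genotype or interaction comparison (none); others are said to be chosen after their values were seen. One listed gene is not reported here by name, but stays in the counts and medians of its list.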

Additional observations from a re-analysis of the deposited data

Results flagged for a closer look

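In 12 of 152 groups of 5 libraries, 1 library lay so far from the rest that its gap to the nearest was over 0.71 of the whole range (Dixon's 95% limit); chance alone gives about 7.6 such groups. Among the 8 genes there were 4. For Sarm1, control mouse H62 was lowest contralaterally at 53.0 CPM against 59.8 to 62.5 in the others (gap 0.721 of the range), and H65 was highest ipsilaterally at 65.7 against 62.5 to 63.3 (0.747). For Nmnat3, control mouse H97 was lowest contralaterally at 0.561 CPM against 0.815 to 0.918 (0.712). For Nampt, cKO mouse H64 was lowest ipsilaterally at 54.2 CPM against 56.7 to 57.5 (0.771).

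In the other lists, cKO mouse H64 was highest contralaterally for Sirt3 (38.3 CPM against 30.5 to 32.1, gap 0.788) and Skp1a (619 against 558 to 573, 0.751), and highest ipsilaterally for Mycbp2 (264 against 220.1 to 228, 0.826). For Map3k13, cKO mouse H99 was highest ipsilaterally (29.9 CPM against 25.6 to 26.5, 0.791), and for Nt5e cKO mouse H95 was lowest contralaterally (74.6 against 78.8 to 80.0, 0.793). Control mouse H65 was lowest ipsilaterally for Cd38 (6.40 CPM against 9.02 to 9.86, 0.757), H96 was lowest ipsilaterally for Nnt (5.37 against 5.84 to 5.98, 0.765), and H97 was lowest contralaterally for Casp6 (2.82 against 3.63 to 3.89, 0.755). Skp1a and Mycbp2 were chosen after their values were seen.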

How the results depend on the processing

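Precision was lowest for the least counted of the 8 genes, Nmnat3 and Naprt, with 45 to 116 and 168 to 451 counts per library. For the 38 genes followed singly (the 8, the checks and the genes named by rule or singled out), over the alternatives with all mice, 1377 of 1401 values stayed on their side of the threshold, 11 lost and 13 gained a call; with 1 mouse left out these were 1854 of 1900, 30 and 16. The sign changed in 16 and 85 values, none of them called in either fit. Over the 58 listed genes the alternatives with all mice gained 21 and lost 19 calls. With the replicate block the counts after transection were 8559 genes in control and 9015 in cKO mice, 5 of the 8 genes in each, and 23 and 22 of the 58 listed genes; it moved the calls of Naprt in cKO mice, of Nnmt in control mice (0.57, adjusted p 0.0333) and of Naxe in cKO mice (-0.08, adjusted p 0.0601), and no other call of the 8 or the named genes. It could not be fitted for the genotype comparisons. Leaving out 1 mouse gave 6832 to 8891 calls in control and 7151 to 9077 in cKO mice, 4 to 5 and 3 to 5 of the 8, and 17 to 24 and 19 to 24 of the 58.

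The contralateral genotype count moved most, and the cause was not tested. In place of 21 genes (7 higher), DESeq2 called 1041 (667 higher), testing all genes with any count gave 50, a minimum mean CPM of 1 gave 45, and fitting only the libraries compared gave 2; leaving out a mouse gave 4 (H95) to 3326 (H99), with 174 without H61. Of the 8 genes 0 to 2 and of the 58 listed genes 0 to 12 were then called, the highest without H99, and DESeq2, the unfiltered table and the minimum mean CPM of 1 each called 1 listed gene, Nnmt. For the interaction DESeq2 called 11 genes and leaving out a mouse gave 0 to 43 (H99).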

Other observations

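Nnmt, which methylates nicotinamide and so removes it from the salvage route, was chosen here after its values were seen, as the listed gene with the largest contralateral difference between genotypes. It had 1.078, 0.894, 0.517, 0.465 and 0.524 CPM in control mice H62, H63, H65, H96 and H97 and 1.01, 1.86, 1.73, 1.16 and 2.16 CPM in cKO mice H61, H64, H95, H99 and H100 on the contralateral side. The cKO values were higher, with H61 inside the control range. The log2 difference was 1.19 (95% interval 0.71 to 1.68, adjusted p 0.0503), just short of the threshold, and ran from 1.05 to 1.41 over 17 settings with adjusted p between 0.0003623 and 0.384. Fibroblasts are a known source of Nnmt, and the 5 fibroblast markers were higher in the same comparison (median log2 difference 0.85, summed level 621 to 961 CPM in control and 696 to 1685 CPM in cKO libraries, none at 0); their part in the Nnmt value was not tested. Ipsilaterally Nnmt differed by 0.15 (95% interval -0.33 to 0.63).

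Levels of the route from tryptophan were compared per length of merged exons in control contralateral libraries (mean ± SD, n = 5). Tdo2 and Haao stood at 0.033 ± 0.0118 and 0.033 ± 0.00822 CPM per kb, Kynu at 0.0797 ± 0.0428, Kmo at 0.153 ± 0.0591 and Ido2 at 0.153 ± 0.0371 CPM per kb. Afmid, at 0.927 ± 0.0546, was close to the NAD synthetase Nadsyn1 at 1.00 ± 0.0723, and Qprt, which joins the route to NAD, stood at 2.05 ± 0.349 CPM per kb. None of Tdo2, Kmo, Kynu, Haao, Afmid, Acmsd, Ido2, Qprt and Nadsyn1 passed the main edgeR test after transection, though some did in other fits. In control mice these were Kmo with DESeq2 (0.68, adjusted p 0.04996) and without H96 (0.85, adjusted p 0.0320) or H99 (0.67, adjusted p 0.0240), and Tdo2 with limma-voom (0.86, adjusted p 0.0348) and when only the control libraries were fitted (0.82, adjusted p 0.0478). Kynu passed there without H97 (-0.95, adjusted p 0.0106) and Ido2 without H65 (0.62, adjusted p 0.0298); in cKO mice Ido2 passed without H65 (0.49, adjusted p 0.0488) or H95 (0.64, adjusted p 0.0369).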
